A study of Mus musculus with 36 samples.

Results

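T cell costimulatory receptors and ligands were followed in mouse mammary tumors and tumor-free glands, taking 10 genes of the 21650 in the deposited expression table. The genes were chosen by name for their function and matched by gene symbol. All 10 were present. They comprised 5 receptors of the tumor necrosis factor receptor family found on T cells (Tnfrsf4, Tnfrsf9, Tnfrsf14, Tnfrsf18 and Cd27, encoding OX40, 4-1BB, HVEM, GITR and CD27), 2 receptors of the CD28 family (Cd28 and Icos), the ligands of CD28 on antigen-presenting cells (Cd80 and Cd86), and Cd40, the receptor through which T cells activate antigen-presenting cells.

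A T cell that recognises its antigen needs a further signal to divide and survive, and this costimulation is given by ligands on antigen-presenting cells. CD28 is present on resting T cells, whereas ICOS, OX40, 4-1BB and GITR are raised on activated T cells and are high on regulatory T cells in tumors. Receptors of the tumor necrosis factor receptor family bind TRAF adaptors and activate NF-κB, while CD28 and ICOS recruit phosphoinositide 3-kinase.

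The study compared 2 models of triple-negative breast cancer in which tumor cells were placed into the milk ducts of lactating dams mated at the age of 8 weeks. 4T1, a metastatic carcinoma line tagged with luciferase, was grown in BALB/c mice, and Py230, a locally invasive line, was grown in C57BL/6 mice. Matrigel, the matrix that carried the cells, was given alone to control dams of each strain, and tissue was collected 1, 3 or 6 weeks later (weeks 1, 3 and 6). The 36 bulk libraries thus formed 12 groups of 3. Because each line was grown in its own strain, the tumor line and the host strain cannot be told apart in a comparison of the tumors alone. The study also placed fewer 4T1 than Py230 cells, so the dose cannot be told apart from the line either. Both tumor models rest on 1 cell line each, and every tumor library also holds RNA of the surrounding gland. In such bulk samples, fewer cells of a type and less RNA per cell cannot be told apart.

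The table gave no read counts. Each library's values had a mean of 0 and a standard deviation of 1 over all genes, so a value is a score in units of that spread, and the depth of the libraries is unknown. Across genes, 1 score unit corresponded to about 2.92 log2 units of the authors' mean count (r = 0.97 over 13436 genes). This slope was measured between genes and was not used to turn differences into fold changes. Below, a gene passed the test when the adjusted p of limma over all 21650 genes was under 0.05.

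A set of 4 libraries was also left out together because of their leukocyte or T cell marker scores. It held replicate 1 of the 4T1 tumors at week 3, of the Py230 tumors at weeks 1 and 3 and of the C57BL/6 glands at week 1. Some other libraries lay as far from their groups, such as replicate 2 of the BALB/c glands at week 1, whose leukocyte marker mean was 0.65 against 1.09 and 1.21, and replicate 2 of the 4T1 tumors at week 1, at 1.47 against 1.78 in both others. These were left out singly, as was every library. The pan-leukocyte gene Ptprc scored between 0.80 and 1.93 in every library and the T cell gene Cd3e between -0.90 and 0.44.

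The 4 receptor genes Tnfrsf9, Tnfrsf14, Tnfrsf4 and Tnfrsf18 all lie on chromosome 4 (mm10, GENCODE gene spans). Tnfrsf4 (chr4:156013843-156016612, plus strand) and Tnfrsf18 (chr4:156026164-156028895, plus strand) are neighbours, separated by 9551 bases. Tnfrsf9 spans chr4:150914562-150946102 on the plus strand and Tnfrsf14 spans chr4:154921933-154928563 on the minus strand. Cd28 (chr1:60716800-60773359) and Icos (chr1:60977927-61000320) lie on either side of Ctla4 on the plus strand of chromosome 1. Cd80 (chr16:38455561-38496335, plus strand) and Cd86 (chr16:36603869-36666081, minus strand) share chromosome 16. Cd27 lies at chr6:125232622-125237010 on the minus strand and Cd40 at chr2:165055627-165072948 on the plus strand. Icos and Cd27 each overlap another annotated gene on their own strand, and Tnfrsf9, Tnfrsf18 and Cd27 each overlap one on the opposite strand. Whether the authors' counting used strand is not given in the sources used here, so how reads in these overlaps were counted is unknown.

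RefSeq promoter windows (GRCm38.p6, from 250 bases before to 50 bases after an annotated start) were found for 6 of the 10 genes. The windows are shown for Tnfrsf9, whose score had the widest range over the groups, for Cd80, which differed between the tumors at 2 of the 3 time points, and for the neighbours Tnfrsf4 and Tnfrsf18, both of which fell in 4T1 tumors from week 3 to week 6. Capitals mark matches, on either strand, to the κB consensus of NF-κB or to the AP-1 motif TGANTCA.
Tnfrsf9, upstream start, chr4:150919905-150920204, plus strand: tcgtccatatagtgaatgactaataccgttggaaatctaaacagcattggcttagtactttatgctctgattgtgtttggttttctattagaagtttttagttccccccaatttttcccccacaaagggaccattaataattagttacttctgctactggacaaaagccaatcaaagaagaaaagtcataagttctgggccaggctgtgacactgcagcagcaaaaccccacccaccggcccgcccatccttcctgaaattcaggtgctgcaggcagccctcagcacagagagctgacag
Tnfrsf9, downstream start, chr4:150927749-150928048, plus strand: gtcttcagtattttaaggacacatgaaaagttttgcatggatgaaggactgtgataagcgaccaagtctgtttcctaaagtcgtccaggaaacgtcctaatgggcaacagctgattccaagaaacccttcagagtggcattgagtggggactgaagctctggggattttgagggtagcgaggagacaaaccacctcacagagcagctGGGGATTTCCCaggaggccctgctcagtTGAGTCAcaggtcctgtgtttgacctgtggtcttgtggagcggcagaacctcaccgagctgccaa
Tnfrsf4, chr4:156013445-156013744, plus strand: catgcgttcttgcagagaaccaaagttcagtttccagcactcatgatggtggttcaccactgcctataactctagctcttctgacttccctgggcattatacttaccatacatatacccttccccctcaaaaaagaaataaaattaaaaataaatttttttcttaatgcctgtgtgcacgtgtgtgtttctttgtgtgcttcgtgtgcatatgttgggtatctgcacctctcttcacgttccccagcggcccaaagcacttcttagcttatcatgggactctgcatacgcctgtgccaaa
Tnfrsf18, chr4:156026072-156026371, plus strand: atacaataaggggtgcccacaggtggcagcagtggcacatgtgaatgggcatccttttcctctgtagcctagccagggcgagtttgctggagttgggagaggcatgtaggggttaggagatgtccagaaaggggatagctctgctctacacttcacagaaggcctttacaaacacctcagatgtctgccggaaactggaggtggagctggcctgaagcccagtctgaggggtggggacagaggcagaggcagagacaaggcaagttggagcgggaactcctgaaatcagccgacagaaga
Cd80, chr16:38458683-38458982, plus strand: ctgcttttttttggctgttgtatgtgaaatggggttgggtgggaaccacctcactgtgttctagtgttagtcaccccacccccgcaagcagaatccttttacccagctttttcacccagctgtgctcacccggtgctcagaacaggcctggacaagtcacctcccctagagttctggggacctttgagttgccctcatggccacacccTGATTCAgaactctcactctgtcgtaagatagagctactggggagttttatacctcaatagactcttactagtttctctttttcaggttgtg
The downstream Tnfrsf9 window held overlapping κB matches and an AP-1 match, and the Cd80 window held an AP-1 match. Neither motif was found in the other windows shown. Of all 32851 windows in the table, 8.46% held a κB match and 7.81% an AP-1 match. The NFAT core GGAAA, present in 61.3% of windows, was found in those of Tnfrsf9, Tnfrsf4 and Tnfrsf18 but not in that of Cd80. A match is a stretch of letters and was not tested as a binding site.

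**Figure D1:**
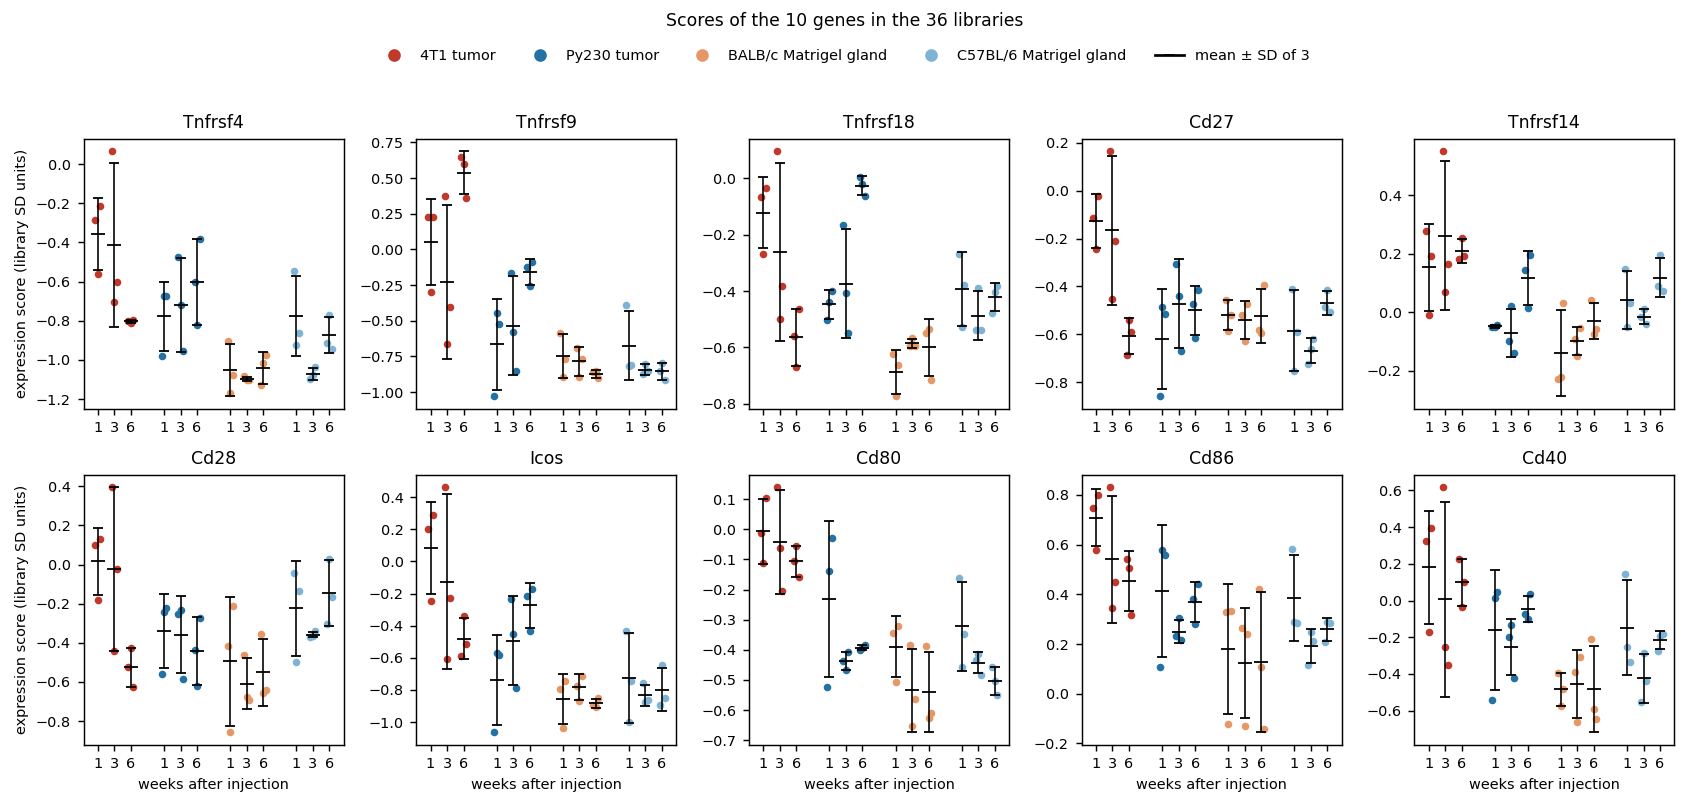
Expression scores (library SD units, vertical axis, one scale per panel) of the 10 genes in each of the 36 libraries, by weeks after injection, with points for libraries and bars for the mean ± SD of 3. At week 1 the 4T1 tumors lay above the BALB/c glands in all libraries for 9 of the 10 genes, and at week 6, the group mean of Tnfrsf9 was highest in 4T1 tumors and that of Tnfrsf18 in Py230 tumors.

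The highest group mean was that of 4T1 tumors at week 1 for 7 of the 10 genes (Tnfrsf4, Cd27, Cd28, Icos, Cd80, Cd86 and Cd40), as the plot of scores by library shows. Tnfrsf14 was highest in 4T1 tumors at week 3 (0.26 ± 0.25, SD, n = 3, but 0.12 without replicate 1, below the 0.21 of week 6 and the 0.15 of week 1), Tnfrsf9 in 4T1 tumors at week 6 (0.54 ± 0.15), and Tnfrsf18 in Py230 tumors at week 6 (-0.025 ± 0.035). The lowest mean was in a Matrigel gland group for every gene. Neighbours in these orders mostly overlapped: of the 11 neighbouring pairs of groups, 1 pair did not overlap for Tnfrsf4, Tnfrsf9 and Cd80, and none was apart for the other 7 genes. The range between highest and lowest group mean was 1.41 for Tnfrsf9 and 0.97 for Icos, but 0.40 for Tnfrsf14.

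To ask how the models differed early, 4T1 and Py230 tumors were compared at week 1. Of the 10 genes, 5 were higher in 4T1 tumors and none was lower, against 19.4% of all genes passing in either direction and 11% passing as higher. All 10 differences were positive, with a median of 0.35 beside 0.0055 over all genes.

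Icos, the inducible member of the CD28 family, scored 0.20, -0.25 and 0.29 in the 4T1 tumors and -1.06, -0.57 and -0.59 in the Py230 tumors. The groups did not overlap, although replicate 2 of the 4T1 tumors was lower than the others. The difference was 0.82 ± 0.19 (SE, adjusted p = 0.00425). Tnfrsf9, encoding the activation-induced receptor 4-1BB, scored 0.23, -0.30 and 0.23 against -1.03, -0.44 and -0.52, a difference of 0.72 ± 0.19 (adjusted p = 0.0118). Cd27, a receptor of naive and memory T cells, scored -0.12, -0.25 and -0.021 against -0.86, -0.49 and -0.51, a difference of 0.49 ± 0.12 (adjusted p = 0.00485). For both genes every 4T1 library lay above every Py230 library. Tnfrsf4 scored -0.29, -0.56 and -0.21 against -0.98, -0.67 and -0.68 (difference 0.42 ± 0.15, adjusted p = 0.0447). Its neighbour Tnfrsf18 scored -0.066, -0.27 and -0.033 against -0.50, -0.44 and -0.40 (difference 0.33 ± 0.11, adjusted p = 0.0313). The lowest 4T1 score of Tnfrsf4 and of Tnfrsf18 was in replicate 2, still above all Py230 tumors. Of these 5 genes only Tnfrsf9 had an authors' mean count of at least 100, the limit of the filter used as an alternative.

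The other 5 genes did not pass. Tnfrsf14 differed by 0.20 (adjusted p = 0.104) and Cd28 by 0.36 (adjusted p = 0.138), each without overlap of the groups. Cd80 differed by 0.22 with overlapping groups (adjusted p = 0.109). In all, 7 of the 10 genes had groups that did not overlap, where 39.1% of all genes did so. Without replicate 1 of the Py230 tumors, which had the lowest score of its group in all 5 genes that passed, 1 gene still passed. It was Icos, while Cd27 then differed by 0.37 (adjusted p = 0.051) and Tnfrsf9 by 0.54 (adjusted p = 0.095). Leaving out replicate 1 or replicate 3 of the 4T1 tumors left 2 genes each, and leaving out replicate 2 of the Py230 tumors left 3.

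Beside these genes, 6 of 10 T cell markers, 4 of 7 dendritic cell markers and all 5 leukocyte markers were higher in 4T1 tumors at week 1. The mean score of the T cell markers ranged from -0.072 to 0.21 in 4T1 tumors and from -0.53 to -0.25 in Py230 tumors. Foxp3, the regulatory T cell factor, scored 0.49, 0.16 and 0.49 against -0.16, -0.063 and -0.050. The part of these cell types in the differences of the 10 genes was not tested.

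At week 3, with 4T1 again set against Py230 tumors, 3 of the 10 genes were higher and none was lower, beside 30.3% of all genes in either direction and 11.9% as higher, and all 10 differences were again positive (median 0.31). Cd80, a ligand of CD28, scored 0.14, -0.062 and -0.21 in the 4T1 tumors and -0.44, -0.47 and -0.41 in the Py230 tumors. It differed by 0.39 ± 0.10 (adjusted p = 0.00361). Tnfrsf14, whose product binds LIGHT and the inhibitory receptor BTLA, scored 0.55, 0.069 and 0.17 against -0.10, 0.021 and -0.14, a difference of 0.33 ± 0.088 (adjusted p = 0.00521). Groups did not overlap for 3 of the 10 genes, Cd80 and Tnfrsf14 among them, beside 32.6% of all genes. Cd27 differed by 0.31 ± 0.12 (adjusted p = 0.0471), with 0.16, -0.45 and -0.21 against -0.31, -0.44 and -0.67, and its groups overlapped. This call was lost with the libraries of that week only (adjusted p = 0.15), with quantile normalization (0.057), with the replicate block (0.0502) and when any 1 of 4 of the 6 libraries was left out.

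Replicate 1 of the 4T1 tumors at week 3 was the highest of its group in all 10 genes, and its T cell marker mean of 0.61 was the highest of all 36 libraries. Without it, 1 gene passed, Cd80, and Tnfrsf14 differed by 0.19 (adjusted p = 0.065) and Cd27 by 0.14 (adjusted p = 0.36). Without the set of 4 libraries, the count was also 1. Leaving out replicate 2 of the 4T1 tumors, the lowest in 8 of the 10 genes, raised the count to 6. Among marker lists, 2 of 10 T cell, 6 of 6 macrophage and 4 of 7 dendritic cell markers were higher in 4T1 tumors at this time, and their part was not tested.

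At week 6 the genes went in both directions: 2 of 10 were higher and 1 was lower in 4T1 tumors, against 40.8% of all genes that passed (24.1% higher and 16.7% lower), and the median difference was 0.0016. Tnfrsf9 scored 0.65, 0.60 and 0.36 in the 4T1 tumors and -0.12, -0.26 and -0.090 in the Py230 tumors. Every 4T1 library was higher, by 0.69 ± 0.19 on average (adjusted p = 0.00522). Tnfrsf18 ran the other way, with -0.56, -0.67 and -0.47 in the 4T1 tumors and 0.0062, -0.019 and -0.063 in the Py230 tumors, a difference of -0.54 ± 0.11 (adjusted p = 0.000162). Cd80 was higher in 4T1 tumors by 0.29 ± 0.10 (adjusted p = 0.0213), with -0.10, -0.056 and -0.16 against -0.40, -0.39 and -0.38. The groups of these 3 genes, and of no other of the 10, did not overlap, beside 58.2% of all genes. Leaving out any library in turn left 2 or 3 of the calls.

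T cell markers did not separate the tumors at week 6, where 1 of 10 passed and was lower in 4T1 tumors, and their mean score ran from -0.17 to -0.13 in 4T1 and from -0.27 to 0.084 in Py230 tumors. All 6 neutrophil markers were higher in 4T1 tumors, with mean scores from 0.22 to 0.43 against -0.65 to -0.48. Other lists differed too. All milk genes were lower in 4T1 tumors, while only 1 endothelial and only 1 regulatory T cell marker were higher. The other endothelial markers did not pass and went in both directions. The other regulatory T cell markers had negative differences that did not pass. Foxp3 was among them, at -0.16 (adjusted p = 0.222), with every 4T1 library below every Py230 library. An NK cell marker was higher and another was lower. The part of these lists in the Tnfrsf9 and Cd80 differences was not tested.

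**Figure D2:**
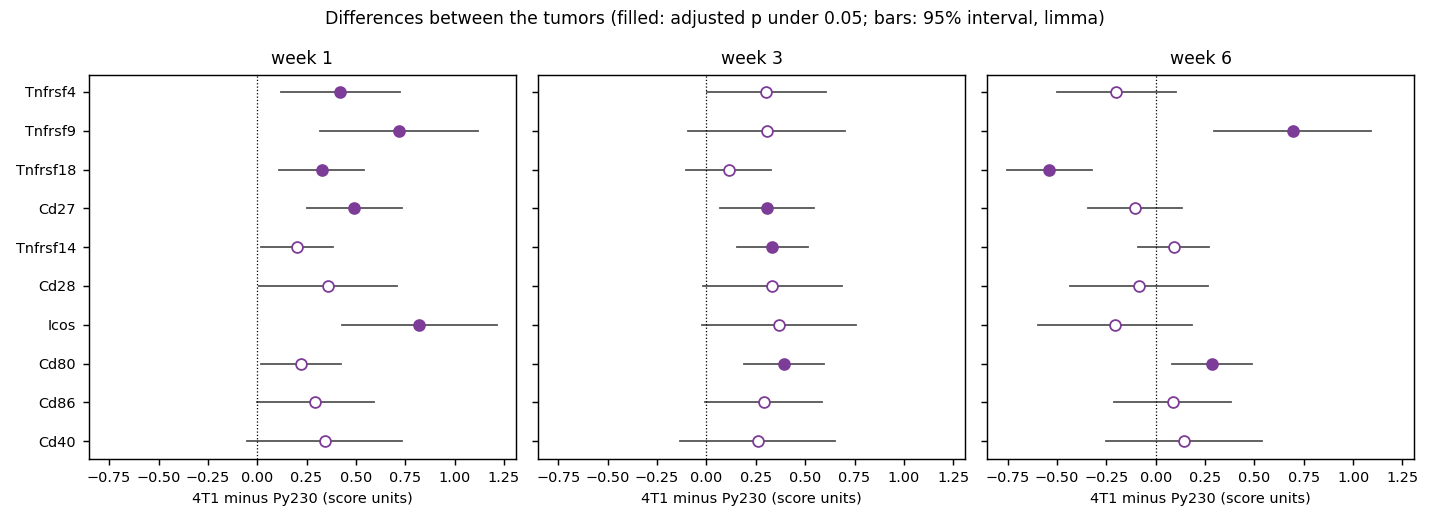
Difference in score between 4T1 and Py230 tumors (horizontal axis, score units) for the 10 genes at weeks 1, 3 and 6, with 95% intervals from limma and filled points where the adjusted p was under 0.05. All 10 points lie right of 0 at weeks 1 and 3, and Tnfrsf18 lies at -0.54 at week 6.

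Whether these differences themselves changed with time was tested as an interaction. From week 1 to week 6 the gap between the models (4T1 minus Py230) fell for 4 of the 10 genes and rose for none, where 27.4% of all genes passed and 12.4% as a fall. It changed by -1.03 ± 0.27 for Icos (adjusted p = 0.0053), by -0.86 ± 0.15 for Tnfrsf18 (adjusted p = 8.44e-05), by -0.62 ± 0.21 for Tnfrsf4 (adjusted p = 0.0275) and by -0.60 ± 0.16 for Cd27 (adjusted p = 0.0077). These 4 genes had an authors' mean count under 100, so the mean count filter left them untested. Tnfrsf9 was not among them, with differences of 0.72 and 0.69 at these times. From week 3 to week 6, Tnfrsf18 passed with -0.65 ± 0.15 (adjusted p = 0.00197), where 26.7% of all genes passed and 8.88% as a fall. Leaving out replicate 2 of the 4T1 tumors at week 3 raised that count to 6, leaving out replicate 1 of the Py230 tumors at week 3 raised it to 3, and leaving out replicate 1 or 3 of the 4T1 tumors at week 3 or replicate 2 of the Py230 tumors at week 6 gave 2. From week 1 to week 3 none passed with limma (15.3% of all genes did), and none had an unadjusted p under 0.05. Without replicate 1 of the 4T1 tumors at week 3, 3 genes passed.

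Within the 4T1 tumors, 4 of the 10 genes fell and 1 rose from week 3 to week 6, when 53% of all genes changed (34.2% rose and 18.8% fell). Tnfrsf9 rose by 0.77 ± 0.19 (adjusted p = 0.00174), from 0.37, -0.66 and -0.40 to 0.65, 0.60 and 0.36. Cd28, whose product is already present on resting T cells, went from 0.39, -0.44 and -0.022 to -0.53, -0.43 and -0.63, a change of -0.50 ± 0.17 (adjusted p = 0.0151). Cd27 changed by -0.44 ± 0.12 (adjusted p = 0.00254), Tnfrsf4 by -0.39 ± 0.15 (adjusted p = 0.0288) and Tnfrsf18 by -0.30 ± 0.11 (adjusted p = 0.0181). Of the 10 genes, only Cd27 and Tnfrsf4 had groups that did not overlap, beside 55.8% of all genes. The groups of Tnfrsf9, Cd28 and Tnfrsf18 overlapped. Without replicate 1 of the 4T1 tumors at week 3, 2 genes passed, and without replicate 2 or replicate 3 at week 6, 3 passed. In the same step all 5 adipocyte markers fell, with mean scores from 0.66 to 2.16 at week 3 and from -0.34 to -0.0074 at week 6, and so did all 4 milk genes, with means from 0.89 to 1.10 and from -0.76 to -0.72. Of the T cell markers 3 of 10 fell, of the regulatory T cell markers 2 of 4, of the NK cell markers 2 of 4 and of the dendritic cell markers 4 of 7, while 4 of 6 neutrophil markers rose. The T cell marker mean ran from -0.29 to 0.61 at week 3 and from -0.17 to -0.13 at week 6. The part of these lists was not tested. From week 1 to week 3 none of the 10 passed in 4T1 tumors with limma or had an unadjusted p under 0.05 (0.628% of all genes passed), though 3 passed without replicate 1 at week 3.

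In the Py230 tumors Tnfrsf18 rose from week 3 to week 6, from -0.17, -0.41 and -0.55 to 0.0062, -0.019 and -0.063 (difference 0.35 ± 0.11, adjusted p = 0.0471), where 6.03% of all genes passed and 3.96% as a rise. Groups did not overlap for 3 of the 10 genes, Tnfrsf18 among them, beside 22.6% of all genes. The Tnfrsf18 call was lost when replicate 2 or 3 at week 3 or any library at week 6 was left out. All 4 milk genes and 1 of 5 adipocyte markers fell and 2 of 6 neutrophil markers rose in this step, and their part was not tested. From week 1 to week 3 none of the 10 passed with limma, beside 20% of all genes, and 1 (Cd80, with a change of -0.21) had an unadjusted p under 0.05. Without replicate 1 at week 1, 1 gene passed.

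Each tumor was then set against the Matrigel gland of its own strain. At week 1 all 10 genes were higher in 4T1 tumors than in BALB/c glands, where 16.6% of all genes passed in either direction and 9.91% as higher, with differences from 0.29 to 0.94. The CD28 family genes and the CD28 ligand genes were all higher. Icos scored -0.79, -1.04 and -0.74 in the glands, which was 0.94 ± 0.19 below the tumors (adjusted p = 0.00538), and Cd28 scored -0.42, -0.86 and -0.21, which was 0.51 ± 0.17 below (adjusted p = 0.0406). Cd86, the other CD28 ligand gene, stood at 0.75, 0.58 and 0.80 in the tumors and at 0.33, -0.12 and 0.33 in the glands (difference 0.53 ± 0.14, adjusted p = 0.0172). Cd40 stood at 0.32, -0.17 and 0.39 in the tumors and at -0.39, -0.57 and -0.48 in the glands (difference 0.66 ± 0.19, adjusted p = 0.0226). Apart from Tnfrsf14, whose highest gland score of 0.030 passed the lowest tumor score of -0.010, no gene had overlapping groups, as held for 32.4% of all genes.

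These counts at week 1 rested on few libraries. Without replicate 3 of the 4T1 tumors no gene passed, without replicate 2 of the BALB/c glands 1 passed (Tnfrsf18), and without replicate 1 of the 4T1 tumors 3 passed. The difference of Icos was 0.84 (adjusted p = 0.057) without replicate 3 of the 4T1 tumors. Without replicate 2 of the glands that of Cd28 was 0.33 (adjusted p = 0.26) and that of Cd86 was 0.38 (adjusted p = 0.14). Fitted on the libraries of this week alone, 4 of the 10 passed. In the same comparison 8 of 10 T cell markers, 5 of 6 macrophage markers and all 5 leukocyte markers were higher in the tumors, and their part was not tested.

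At week 3, 3 genes were higher in 4T1 tumors than in BALB/c glands, where 3.25% of all genes passed and 2.1% as higher. They were Tnfrsf4 (0.065, -0.71 and -0.60 against -1.08, -1.10 and -1.10, difference 0.68 ± 0.15, adjusted p = 0.024), Cd80 (difference 0.49 ± 0.10, adjusted p = 0.0157) and Tnfrsf14 (difference 0.36 ± 0.088, adjusted p = 0.0323). All 10 differences were positive with an unadjusted p under 0.05. No gene passed without replicate 1 of the 4T1 tumors or without replicate 2 or replicate 3 of the glands, and 1 passed without replicate 1 of the glands. Without replicate 2 of the 4T1 tumors 8 passed, and without replicate 3 of the 4T1 tumors 6 did. Without the set of 4 libraries none passed, and Tnfrsf4 then differed by 0.44 (adjusted p = 0.09).

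At week 6, 4 of the 10 genes were higher in 4T1 tumors than in BALB/c glands and none was lower, while 60.1% of all genes passed and 38.6% as higher. Tnfrsf9 had the largest difference of the 10 in any comparison between tumor and gland. It scored -0.86, -0.85 and -0.90 in the glands, 1.41 ± 0.19 below the 4T1 tumors (adjusted p = 1.05e-06). Cd40 (difference 0.58 ± 0.19, adjusted p = 0.0112), Cd80 (0.43 ± 0.10, adjusted p = 0.000515) and Tnfrsf14 (0.24 ± 0.088, adjusted p = 0.0211) were also higher. The Tnfrsf14 call was lost with cyclic loess normalization (difference 0.19, adjusted p = 0.071), without replicate 2 of the tumors (adjusted p = 0.069) and without replicate 2 or replicate 3 of the glands (adjusted p = 0.068 and 0.056). Cd27 and Cd28, by contrast, were at -0.61 ± 0.074 and -0.53 ± 0.10 (SD, n = 3) in the tumors and at -0.52 ± 0.11 and -0.55 ± 0.17 in the glands. With only the libraries of this week, or without the set of 4 libraries, 7 of the 10 passed. All 6 neutrophil and 5 of 10 T cell markers were higher in the tumors and all 5 adipocyte markers lower, with adipocyte mean scores from -0.34 to -0.0074 in tumors and from 1.66 to 1.98 in glands. Their part was not tested.

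In Py230 tumors, genes of the 10 passed against the C57BL/6 glands only at week 6. The share of all genes passing was also largest then. At week 1 none of the 10 genes passed with limma or had an unadjusted p under 0.05, beside 0.00924% of all genes passing, and the differences ran from -0.12 to 0.092. At week 3 none passed, beside 19.7% of all genes, and 1 had an unadjusted p under 0.05. That gene was Tnfrsf4, which scored -0.48, -0.72 and -0.96 in the tumors and -1.10, -1.08 and -1.04 in the glands (difference 0.35 ± 0.15, adjusted p = 0.0912) and passed without replicate 3 of the tumors, at 0.47 (adjusted p = 0.025).

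At week 6, 3 genes were higher in the Py230 tumors and none was lower, where 47.6% of all genes passed and 28.8% as higher. Tnfrsf9 was 0.70 ± 0.19 above the glands, which scored -0.85, -0.80 and -0.92 (adjusted p = 0.00438). Icos scored -0.22, -0.44 and -0.17 against -0.90, -0.64 and -0.85 (difference 0.52 ± 0.19, adjusted p = 0.025). Tnfrsf18 was 0.40 ± 0.11 above glands at -0.48, -0.40 and -0.38 (adjusted p = 0.0031). Groups did not overlap for 5 of the 10 genes, these 3 among them, beside 64.1% of all genes. The Icos call was lost without replicate 1 or replicate 3 of the tumors, or without replicate 1 or replicate 3 of the glands, with differences from 0.47 to 0.50. Fitted on this week alone, 5 genes passed, 4 higher and Cd28 lower with a difference of -0.30 (adjusted p = 0.048). None of 10 T cell markers, but 3 of 6 neutrophil markers, were higher in these tumors. Of 4 regulatory T cell markers 2 were higher and 1 was lower, with Foxp3 higher by 0.25 (adjusted p = 0.0449). All 5 adipocyte and all 4 endothelial markers were lower, the adipocyte mean running from -0.11 to 1.04 in the tumors and from 1.92 to 2.26 in the glands. Their part was not tested.

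**Figure D3:**
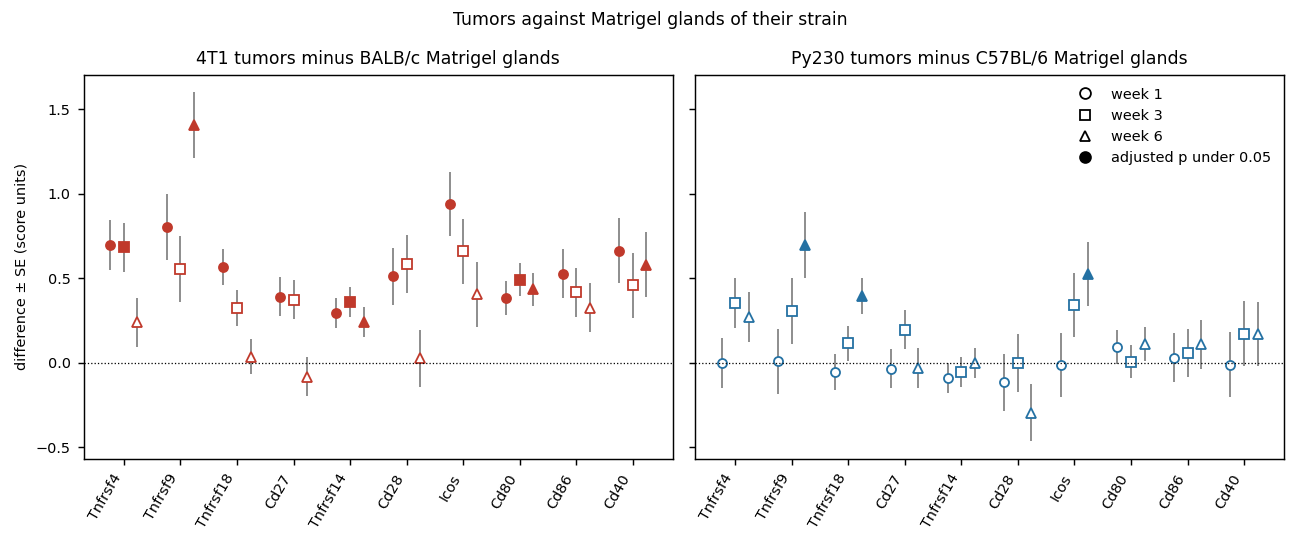
Difference ± SE (vertical axis, score units) between tumors and the Matrigel glands of their strain for the 10 genes, with 4T1 on the left and Py230 on the right, a symbol for each week and filled symbols where the adjusted p was under 0.05. All 10 circles are filled at week 1 on the left and none on the right, and the largest value is that of Tnfrsf9 in 4T1 tumors at week 6.

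The difference between tumor and own gland was then compared between the models. At week 1 it was larger in the 4T1 model for all 10 genes, by 0.29 to 0.95, each with an unadjusted p under 0.05, but none passed the adjusted threshold (0.305% of all genes did). At week 3, Cd80 (0.49 ± 0.14, adjusted p = 0.0298) and Tnfrsf14 (0.42 ± 0.12, adjusted p = 0.0352) passed, where 9.15% of all genes did and 2.64% as a larger value in 4T1. Neither passed without replicate 1 of the 4T1 tumors, at 0.39 for Cd80 (adjusted p = 0.086) and 0.27 for Tnfrsf14 (adjusted p = 0.11), or without the set of 4 libraries, at 0.39 (adjusted p = 0.072) and 0.26 (adjusted p = 0.26). None of the 10 passed either without replicate 1 of the Py230 tumors, replicate 2 of the BALB/c glands or replicate 1 or 2 of the C57BL/6 glands. At week 6 none passed, beside 25.5% of all genes, and 3 had an unadjusted p under 0.05. These were Tnfrsf9 (0.71, adjusted p = 0.058), Tnfrsf18 (-0.36, adjusted p = 0.0782) and Cd80 (0.32, adjusted p = 0.0906).

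Between the glands of the 2 strains none of the 10 genes passed with limma at any week, where 3.06%, 3.77% and 3.84% of all genes passed. The mean was still lower in BALB/c glands for 9, 7 and 10 of the 10 genes at weeks 1, 3 and 6. The median differences (BALB/c minus C57BL/6) were -0.19, -0.049 and -0.14, beside 0.0095, 0.0050 and 0.0029 over all genes. At an unadjusted p under 0.05 there were 2 genes at week 1, none at week 3 and 1 at week 6. The latter was Cd28, which scored -0.35, -0.66 and -0.64 in BALB/c and -0.31, 0.030 and -0.16 in C57BL/6 glands (difference -0.40 ± 0.17, adjusted p = 0.25).

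The partners of the 10 products were examined next. Of the 12 ligands and competing receptors listed, 11 were measured and Cd70 was not analysed here. Tnfsf9, the ligand gene of 4-1BB, scored -0.11, -0.031 and -0.10 in 4T1 tumors at week 6 and -0.77, -0.68 and -0.79 in Py230 tumors. All 4T1 libraries at this time were above the libraries of every other group. The difference between the tumors was 0.66 ± 0.091 (adjusted p = 1.34e-06), and that from BALB/c glands was 0.77 ± 0.091 (adjusted p = 1.01e-07). It had risen by 0.72 ± 0.091 since week 3 (adjusted p = 3.75e-07), when the 4T1 tumors averaged -0.80 ± 0.28 (SD, n = 3). The receptor Tnfrsf9 and its ligand were thus both higher in 4T1 tumors at week 6, whereas at week 1 the receptor passed and Tnfsf9 did not, at -0.79 ± 0.068 in 4T1 tumors and -0.66 ± 0.12 in Py230 tumors (SD, n = 3).

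**Figure D4:**
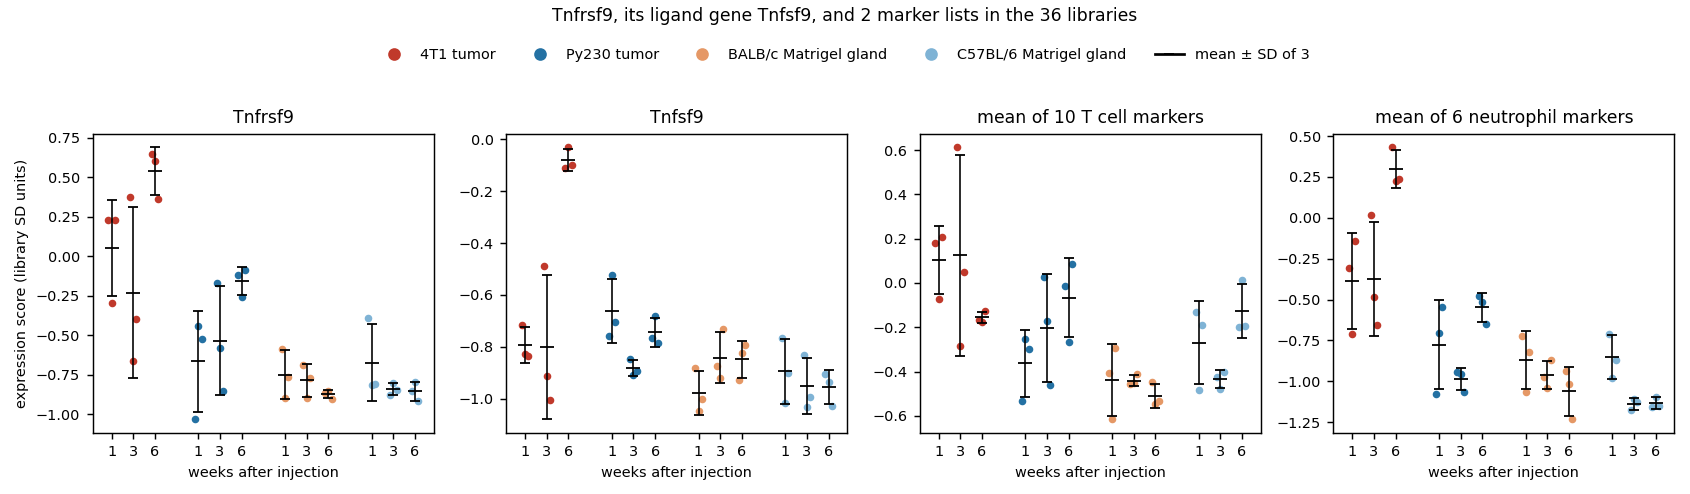
Expression scores (library SD units) of Tnfrsf9 and its ligand gene Tnfsf9, and the mean scores of 10 T cell and 6 neutrophil markers, in each of the 36 libraries by weeks after injection, with bars for the mean ± SD of 3. Tnfrsf9, Tnfsf9 and the neutrophil mean were highest in 4T1 tumors at week 6, when the T cell mean lay between -0.17 and -0.13.

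Ctla4, the inhibitory receptor that competes with CD28 for CD80 and CD86, exceeded its Py230 level in 4T1 tumors at week 1 by 0.92 ± 0.20 (adjusted p = 0.00264). Btla, the inhibitory partner of HVEM, was higher by 0.72 ± 0.14 (adjusted p = 0.00127), and Cd40lg, the ligand of CD40, by 0.33 ± 0.11 (adjusted p = 0.0411). Tnfsf14, encoding the HVEM ligand LIGHT, was higher by 0.40 at week 1 (adjusted p = 0.049) and by 0.61 at week 3 (adjusted p = 0.00176). Cd274, whose product PD-L1 also binds CD80, was higher in 4T1 tumors by 0.46 at week 3 (adjusted p = 0.00438) and by 0.49 at week 6 (adjusted p = 0.00155). Tnfsf18, the GITR ligand gene, was higher in Py230 tumors than in their glands at week 6 by 0.45 ± 0.090 (adjusted p = 0.00021), the time at which Tnfrsf18 was higher there too.

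Among 14 genes of TRAF and NF-κB signaling, 1, 7 and 6 exceeded their Py230 levels in 4T1 tumors at weeks 1, 3 and 6 and none was lower, with median differences of 0.088, 0.18 and 0.14, where 11%, 11.9% and 24.1% of all genes were higher. Traf1, an adaptor of 4-1BB, was higher by 0.65 ± 0.12 at week 6 (adjusted p = 8.85e-05) and Nfkb2, encoding the NF-κB subunit p100, by 0.39 ± 0.061 (adjusted p = 8.52e-06). Of 12 genes of CD28 family signaling, 5 were higher and 1 was lower at week 1, 3 were higher and 1 was lower at week 3, and 3 were lower with none higher at week 6, with medians of 0.21, 0.15 and -0.12, where 8.43%, 18.5% and 16.7% of all genes were lower. Lck, the kinase that starts T cell receptor signaling, was higher by 0.64 at week 1 (adjusted p = 0.0132). Pik3r1, a regulatory subunit of phosphoinositide 3-kinase made in most cells, was lower, with a difference of -0.74 ± 0.080 at week 6 (adjusted p = 2.4e-08). Of 6 other costimulatory genes, 3, 2 and 2 were higher at weeks 1, 3 and 6 and 1 was lower at week 6, beside the same shares of all genes.

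Over the 12 group means, the genes whose pattern was most like each of the 10 were ranked by Pearson's r among 13563 genes with a mean count of at least 100. The points share libraries and tissue composition, so r is a description only. Icos was most like Foxp3 (r = 0.99), Tnfrsf9 most like Dok1 (r = 0.99) and Tnfrsf18 most like Dnase1l3 (r = 0.96). Cd86 was most like Lrrc25, Cybb and Was, the last 2 being a subunit of the phagocyte oxidase and a cytoskeletal regulator of blood cells (r = 0.99 each). Cd40 was most like Ptpn6, Itgal and Prex1 (r from 0.97 to 0.98), and Tnfrsf14 most like the MHC class I genes H2-M3 and H2-K1 (r = 0.95 and 0.92).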

How the data were processed

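RNA of 36 libraries (12 groups of 3) was sequenced after stranded library preparation. Per the labels and the study's methods, the authors aligned reads to mm10 with STAR, counted them per gene and used DESeq2 (versions not given in the sources used here). The deposited expression table holds a score per gene and library, standardized within each library, although it was deposited as normalized counts. How the authors made the scores from counts is not given in the sources used here. Authors' mean counts (unit: other, a deposited column) served for the filter, the score scale and gene symbols. The deposited fold changes and p-values of the authors' comparisons, and a gene set file, were not used.

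A linear model with 12 group means was fitted to the scores of all 21650 genes with limma 3.58.1 (R 4.3.3, trend and robust options), replacing the count test that the unit does not allow. Adjustment was by Benjamini-Hochberg across the whole table, and 0.05 was the threshold. The study calls the tumor samples independent, but separate animals are not stated for the glands, so p-values there may measure technical spread. Precision is limited by 3 libraries a group, since depth is unknown. The script was tested on simulated data.

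All 10 genes and their partners were named. Of each other pathway list, up to 2 genes with the smallest p between 4T1 and Py230 tumors at that time were named, and of marker lists Cd3e, Ptprc and Foxp3, while another marker is not reported here. The members and lists were chosen with earlier results of these data known. Alternatives were a mean count filter of 100, quantile and cyclic loess normalization, fits on the weeks compared, a replicate block, Matrigel subtraction and leaving out libraries. The set of 4 libraries left out together, and the Matrigel subtraction with libraries left out, were chosen after seeing the data.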

Additional observations from a re-analysis of the deposited data

Results flagged for a closer look

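The difference between 4T1 and Py230 tumors changed with time for 4 of the 10 genes, by an interaction test in limma. Of all genes, 27.4% passed from week 1 to week 6 (12.4% as a fall) and 26.7% from week 3 to week 6 (8.88% as a fall). From week 1 to week 6 the difference changed by -0.62 for Tnfrsf4, -0.86 for Tnfrsf18, -0.60 for Cd27 and -1.03 for Icos. From week 3 to week 6 it changed by -0.65 for Tnfrsf18. The tumor minus gland difference at week 3 differed between the models for 9.15% of all genes, 2.64% as a larger value in 4T1. It was larger in the 4T1 than in the Py230 model by 0.42 for Tnfrsf14 and 0.49 for Cd80. Replicate 1 of the 4T1 tumors at week 3 was the highest of its group in both, and without it these were 0.27 (adjusted p = 0.11) and 0.39 (adjusted p = 0.086).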

How the results depend on the processing

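Of 1544 differences of the 10 genes under an alternative, none that passed changed sign, 111 no longer passed and 32 newly passed. Of 1091 that passed in neither fit, 59 had another sign.

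The number of genes that passed between 4T1 and Py230 tumors, 5, 3 and 3 at weeks 1, 3 and 6, was 1 at each time under the mean count filter, which kept 4 of the 10 genes. Matrigel subtraction gave 0 at weeks 1 and 6, and leaving out the set of 4 libraries gave 1 at week 3. For 4T1 tumors against BALB/c glands, 10, 3 and 4 became 4 at week 1 and 1 at week 3 with the filter, and 4, 0 and 7 with the weeks compared only. At week 3 cyclic loess gave 6, the replicate block 5 and leaving out the 4 libraries 0, and the last gave 7 at week 6. For Py230 tumors against C57BL/6 glands at week 6, 3 became 1 with the filter and 5 with that week only. For the change between models from week 3 to week 6, 1 became 0 with the filter and 2 without the 4 libraries. From week 1 to week 6, 4 became 0 because the filter removed all 4 genes. In 4T1 tumors, 0 became 5 from week 1 to week 3 without the 4 libraries, and 5 from week 3 to week 6 became 1 with the filter, 3 with quantile normalization and 3 without the 4 libraries. In Py230 tumors, 0 became 1 from week 1 to week 3 without the 4 libraries, and 1 from week 3 to week 6 became 0 with the filter, that pair of weeks only, quantile or cyclic loess normalization and 2 without the 4 libraries. The filter tested fewer genes. In comparisons within a week no kept gene lost its call with it, so the lower counts there came from the genes it removed. The setting without the 4 libraries used fewer samples. Otherwise the cause was not tested.

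With each library left out in turn, counts ranged from 1 to 6, 1 to 6 and 2 to 3 between 4T1 and Py230 tumors at weeks 1, 3 and 6, from 0 to 10, 0 to 8 and 3 to 5 for 4T1 tumors against glands, and from 0 to 0, 0 to 1 and 2 to 3 for Py230 tumors against glands. They ranged from 0 to 3, 1 to 6 and 3 to 4 for the change between models from week 1 to 3, 3 to 6 and 1 to 6, from 0 to 3 and 2 to 6 for the steps in 4T1 tumors, and from 0 to 1 for both steps in Py230 tumors. Strain counts stayed at 0.

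Of 54 same-numbered pairs, 17 deviated together with a correlation over 0.1 (range -0.54 to 0.79). All 3 pairs did so in 2 of 18 pairs of groups, the glands of both strains at week 1 (0.41, 0.79 and 0.56) and 4T1 tumors with C57BL/6 glands at week 6, which were not compared. In the former, the replicate block left the count between strains at 0. In the other pairs of groups not all 3 pairs did so, and whether those samples shared more than a number is not known. With the replicate block, in comparisons within a week, 2 genes newly passed and 1 (Cd27 between the tumors at week 3) no longer did. Cyclic loess moved the share of all called genes that were higher from 64.2% to 50.6% for 4T1 tumors against glands at week 6 and from 59.1% to 49% between the tumors then. It also moved this share from 66.8% to 49.3% for the change between models from week 3 to week 6, from 54.6% to 43.7% for that from week 1 to week 6, from 64.6% to 48.6% for 4T1 tumors from week 3 to week 6 and from 64.1% to 53.4% for Py230 tumors from week 1 to week 3. No median over all genes moved by over 0.1.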
